A study of Ovis aries with 8 samples.

Results

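The AP-1 family and early response transcription factors were followed here as 10 genes listed by name: the Fos genes FOS, FOSB, FOSL1 and FOSL2, the Jun genes JUN, JUNB and JUND, the related leucine zipper genes ATF3 and MAFF, and the zinc finger gene EGR1. A gene was taken where its symbol in the deposited table equalled a listed name, which gave 9 genes among 27057 rows. JUND was not analysed here. The samples were cultured hepatocytes of fetal sheep (Ovis aries), 4 basal libraries and 4 libraries from cells given metformin, an antidiabetic biguanide, for 24 h. The labels number 4 cell preparations, each with a basal and a metformin library, so the main tests compared libraries within a preparation. Group means, ranges and fits without a term for preparation were taken across preparations. The dose, the vehicle, and the breed, fetal age and number of animals behind the preparations were not given in the labels used here. Nothing in them says that the preparations came from separate animals, and p-values then measure only the spread between these preparations.

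AP-1 is a dimer of leucine zipper proteins that binds DNA at short palindromic elements. Jun proteins pair with each other or with Fos proteins, and Fos proteins need a partner. FOS, FOSB, JUN, JUNB and EGR1 are immediate early genes: signals carried by MAP kinases switch them on without new protein synthesis, and their messages usually decay quickly. FOSL1 and FOSL2, which encode Fra-1 and Fra-2, are switched on later and last longer. In rodent liver these genes are known for their early induction after partial hepatectomy, and mouse embryos without Jun die with defective livers.

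Values are FPKM (fragments per kilobase of transcript, scaled to the mapped total), so levels can be set beside each other between genes. The reads behind a value are unknown and no counting interval is given. Library sums ran from 1024543 to 1257764 FPKM. All 8 hepatocyte markers listed were detected, with a summed level of 18627 to 30100 FPKM without metformin and 9772 to 25345 with it, lower with metformin in each preparation. Of these markers 5 fell, among them HNF4A, and APOB rose; markers singled out here were named after their values were seen. Markers of other liver cells were present too. The 8 stellate and fibroblast markers summed to 1686 to 3446 FPKM without and 715.3 to 1967 with metformin, and 7 of them fell. The 8 macrophage markers summed to 1008 to 2085 and 1219 to 2053 FPKM, with 2 rising and 4 falling; the 8 endothelial markers summed to 91.0 to 361.3 and 75.2 to 274.3, with 3 falling. The 5 cholangiocyte markers with a row summed to 1390 to 8735 and 1257 to 4238 FPKM, with SOX9 rising and KRT7 falling. SPP1, also in the list of AP-1 targets below, made up most of that sum in each library. It was at 1274 to 8648 FPKM without and 1176 to 4150 with metformin. The 3 erythroid markers with a row summed to 1.08 to 64.9 and 1.50 to 48.9 FPKM. Markers that rose or fell were those past the test described below, by which 19.8% of all genes tested rose and 24.1% fell. No marker in these lists was listed at 0 in all libraries. In such bulk samples fewer cells of a type and less RNA per cell cannot be told apart, and the part of cell make-up in the results that follow was not tested.

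With metformin 4 of the 9 genes rose, MAFF, ATF3, FOSL1 and JUN, and JUNB fell. MAFF went from 34.5 ± 14.6 to 140.8 ± 42.5 FPKM and ATF3 from 73.0 ± 4.79 to 189.6 ± 55.6 (SD, n = 4 per group). The archetypal early genes FOS, FOSB and EGR1, and FOSL2, did not pass the test, which was limma's moderated test on log2(FPKM + 1) with the preparation as a block and Benjamini-Hochberg adjustment over 13141 genes, at a threshold of 0.05. All 9 genes passed the filter on low values (FPKM of at least 1 in at least 4 libraries). Across all genes tested, 19.8% rose, 24.1% fell and 43.9% changed in either direction, so the 5 changed genes of 9 (55.6%) stand near the share of the whole transcriptome. The median log2 change of the 9 genes was 0.46, and that of all genes tested was -0.04. In 5 of the 9 genes the lowest metformin library lay above the highest basal one, which was so for 13.3% of all genes tested; these were the 4 genes that rose and FOSL2. The same 5 genes were higher with metformin in all 4 preparations (28.0% of genes tested), and JUNB was lower in all 4 (32.2%).

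**Figure D1:**
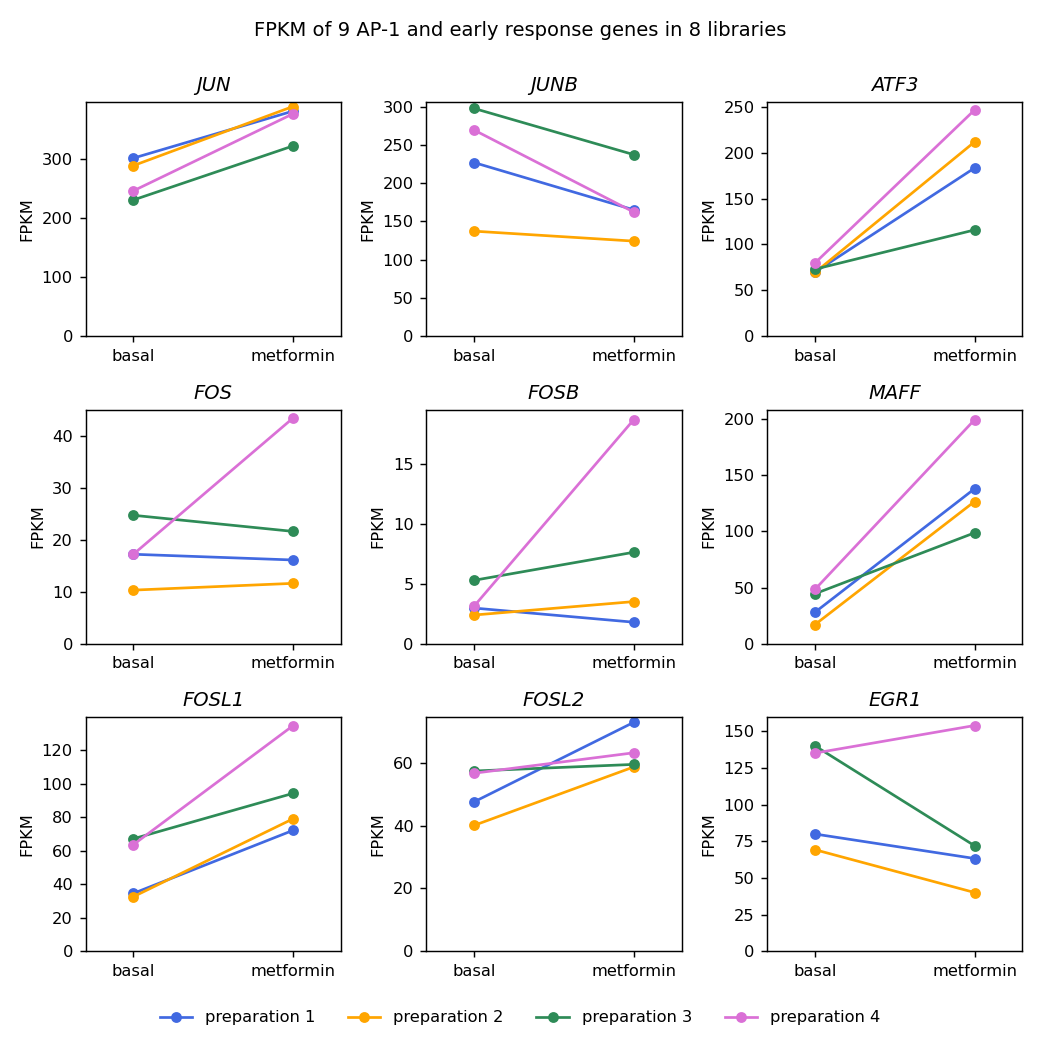
FPKM of each of the 9 genes (vertical axes start at 0) in the basal and metformin library of each of 4 preparations; a line joins both libraries of a preparation. All lines of MAFF, ATF3, FOSL1, FOSL2 and JUN rise and all lines of JUNB fall, whereas FOS, FOSB and EGR1 differ in direction between preparations.

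Among the Fos genes FOSL1 was the only one past the threshold. Its basal levels in preparations 1 to 4 were 34.6, 32.6, 67.2 and 63.7 FPKM, and its metformin levels were 72.2, 79.1, 94.3 and 134.7. The groups did not overlap, although the highest basal library came within 5.05 FPKM of the lowest metformin one. FOSL1 rose from 49.5 ± 18.5 to 95.1 ± 28.0 FPKM, a log2 change of 0.96 ± 0.14 (SE, adjusted p = 0.00311 with limma), and by 2.09, 2.43, 1.40 and 2.11 times in preparations 1 to 4. Without the block its adjusted p was 0.0527.

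FOSL2 had basal levels of 47.6, 40.1, 57.4 and 56.7 FPKM and metformin levels of 72.9, 58.7, 59.5 and 63.2. Every metformin library was above every basal one, but the gap within preparations 3 and 4 was small, with ratios of 1.04 and 1.12 against 1.53 and 1.47 in preparations 1 and 2. Its log2 change of 0.34 (95% interval 0.03 to 0.65) had an adjusted p of 0.0736, and of 0.0415 when libraries were rescaled by the median of ratios. The q-value of the authors' deposited table for FOSL2 was 0.124.

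FOS, which encodes c-Fos, was at 17.2, 10.3, 24.7 and 17.2 FPKM in basal libraries and at 16.1, 11.6, 21.6 and 43.4 in metformin libraries. It was nearly level in preparations 1 to 3, and its metformin level in preparation 4 was the highest of the 8. The log2 change was 0.29 (95% interval -0.28 to 0.86, adjusted p = 0.357), and without preparation 4 it was -0.04 (adjusted p = 0.833). FOSB, its close relative, showed the same preparation apart: 2.97, 2.39, 5.29 and 3.14 FPKM in basal and 1.79, 3.51, 7.63 and 18.7 in metformin libraries. The metformin to basal ratio of FOSB was 5.96 in preparation 4 and between 0.601 and 1.47 in the other preparations. Its log2 change of 0.65 (-0.28 to 1.58, adjusted p = 0.212) was 0.12 without preparation 4 (adjusted p = 0.711) and 1.04 without preparation 1 (0.0682). The intervals of FOS and FOSB leave room for a fall as well as a rise.

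The make-up of the Fos messages differed between the groups. Summed over the 4 genes the Fos level was 102.4, 85.3, 154.6 and 140.8 FPKM in basal and 163.0, 152.9, 183.0 and 260.0 in metformin libraries, higher with metformin in each preparation. FOSL1 and FOSL2 made up most of this sum in every library. The share of FOSL1 was 33.8%, 38.2%, 43.5% and 45.3% in basal and 44.3%, 51.7%, 51.5% and 51.8% in metformin libraries, while that of FOSL2 was lower with metformin in each preparation, 42.7% ± 4.83 against 35.0% ± 8.70. FOS held 14.3% ± 2.49 of the basal sum and 11.5% ± 3.88 of the metformin sum, lower in 3 of 4 preparations and higher in preparation 4. These shares follow from the levels above and were given no test.

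The 2 Jun genes measured moved in opposite directions. JUN, which encodes c-Jun, had basal levels of 301.2, 288.5, 230.3 and 245.8 FPKM and metformin levels of 380.8, 388.6, 321.8 and 376.2. The groups did not overlap and the response was even, with ratios of 1.26, 1.35, 1.40 and 1.53 in preparations 1 to 4. The mean of JUN rose from 266.5 ± 33.8 to 366.9 ± 30.5 FPKM, with a log2 change of 0.46 ± 0.10 (adjusted p = 0.0109 with limma), and the q-value of the authors' deposited table was 0.0286.

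JUNB, which can oppose c-Jun at its targets, had basal levels of 226.8, 137.1, 297.6 and 269.3 FPKM and metformin levels of 165.0, 124.1, 237.2 and 162.1. The groups overlapped, but each preparation was lower with metformin. JUNB fell from 232.7 ± 70.1 to 172.1 ± 47.2 FPKM, with a log2 change of -0.41 ± 0.12 (adjusted p = 0.0327 with limma). That call ended without preparation 1 (adjusted p = 0.112), 3 (0.0669) or 4 (0.115), without the block (0.32) and without a filter on low values (0.0556), and the q-value of the authors' deposited table was 0.0745.

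The ratio of JUN to JUNB within a library cannot be moved by a scaling factor applied to the whole library. Its values were 1.33, 2.10, 0.774 and 0.913 in basal and 2.31, 3.13, 1.36 and 2.32 in metformin libraries. It was higher with metformin in each preparation, although the groups overlapped. The sum of JUN and JUNB differed less, at 499.2 ± 49.4 FPKM in basal and 539.0 ± 19.5 in metformin libraries. The ratio of FOSL1 to FOSL2 was 0.726, 0.813, 1.17 and 1.12 in basal and 0.990, 1.35, 1.58 and 2.13 in metformin libraries. An exact sign-flip permutation test, 2-sided, gave p = 0.125 for each of these ratios, the smallest that 4 pairs allow, and 0.156 adjusted over the 5 ratios examined. The other three were ATF3 to JUN and ATF3 to EGR1, with the same p-values, and FOSL1 to FOS (p = 0.25, also 0.25 adjusted, in the exact permutation test). These 5 ratios were chosen after the values were seen.

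**Figure D2:**
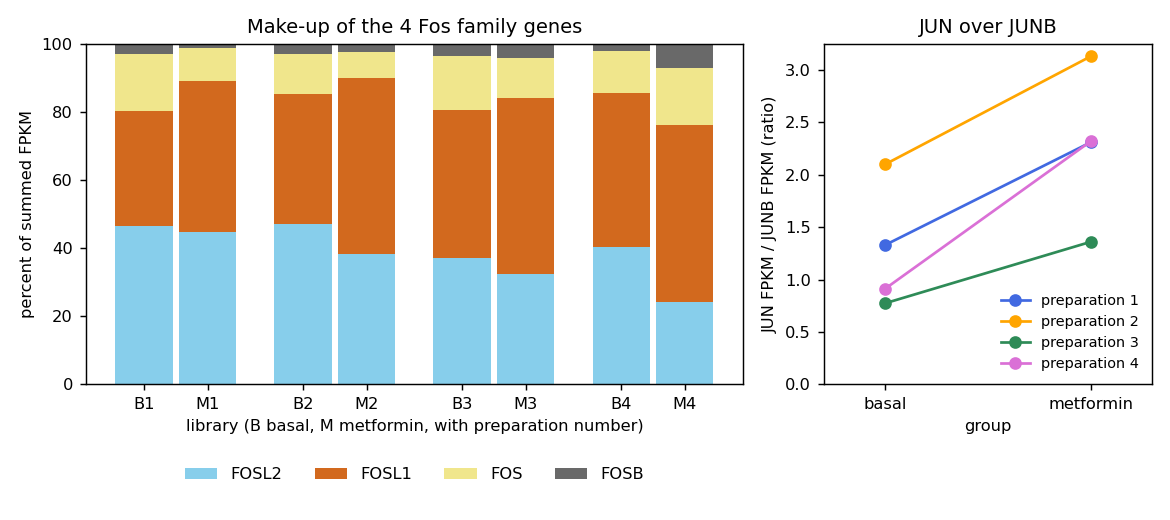
Left, percent of the summed FPKM of the 4 Fos genes held by each gene in the 8 libraries, ordered by preparation; right, ratio of JUN to JUNB FPKM in each library, with lines joining the libraries of a preparation. The FOSL1 share is larger with metformin in each preparation, and the JUN to JUNB ratio lies between 0.774 and 2.10 in basal and between 1.36 and 3.13 in metformin libraries.

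MAFF and ATF3 had the largest changes of the 9 genes. MAFF encodes a small Maf protein that has no activation domain of its own and binds DNA with partners such as NRF2. Its basal levels were 28.0, 17.0, 44.5 and 48.4 FPKM and its metformin levels were 138.1, 126.7, 98.8 and 199.6. The groups were well apart, and the ratio was highest in preparation 2, where the basal level was lowest, at 7.46, against 4.93, 2.22 and 4.13 in preparations 1, 3 and 4. The log2 change of MAFF was 2.06 ± 0.25 (adjusted p = 0.00163), the 61st largest rise of the 13141 genes tested. From basal to metformin libraries MAFF moved from the 68.8th to the 91.7th percentile of mean FPKM.

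ATF3, a stress-induced factor that pairs with Jun proteins and often represses its targets, had basal levels of 69.8, 69.4, 73.0 and 79.8 FPKM and metformin levels of 183.6, 212.1, 115.9 and 247.0. Its basal libraries lay close together, whereas its metformin libraries spread over 131.1 FPKM, with preparation 3 lowest. The ratios were 2.63, 3.06, 1.59 and 3.10 in preparations 1 to 4, and the log2 change was 1.31 ± 0.17 (adjusted p = 0.00212). Among the genes higher with metformin in each preparation, MAFF, ATF3, FOSL1 and FOSL2 had their smallest ratio in preparation 3, and JUN did not. The same was seen in genes of other lists, such as CSRNP1, MAPK8 and APOB, but not in LIF or NAB1. The calls of MAFF, ATF3 and JUN held in each of the 11 alternative settings.

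EGR1, a zinc finger factor that serum and growth factors induce together with FOS, went the other way in most preparations. It was at 80.0, 69.3, 140.1 and 135.2 FPKM in basal libraries and at 63.3, 40.1, 72.0 and 154.0 in metformin libraries. The groups overlapped: EGR1 was lower with metformin in preparations 1 to 3 and slightly higher in preparation 4, the preparation in which FOS and FOSB were high. Its log2 change was -0.47 (95% interval -0.92 to -0.02, adjusted p = 0.0852). Without preparation 4 it was -0.69 and passed the test (adjusted p = 0.0251), whereas without preparation 3 it was -0.31 (0.258) and without preparation 2 it was -0.37 (0.233).

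**Figure D3:**
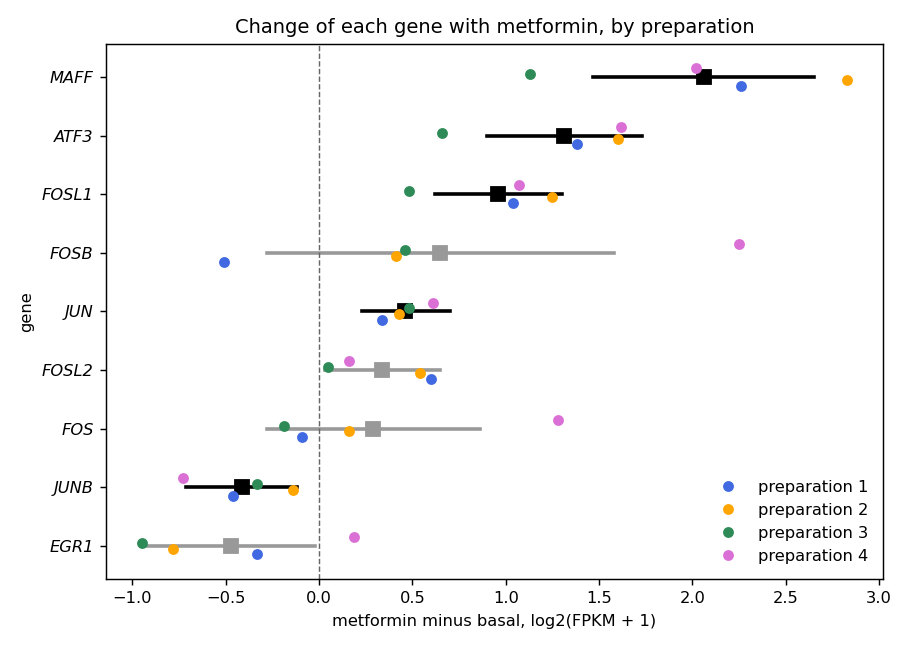
Difference between metformin and basal on the log2(FPKM + 1) scale for the 9 genes; squares and bars give the fitted change with its 95% interval (black where the adjusted p was under 0.05, grey otherwise) and circles the 4 preparations. MAFF, at 2.06, and ATF3, at 1.31, lie farthest to the right, and preparation 4 lies to the right of the other preparations for FOS, FOSB and EGR1.

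The order of the levels also differed. In basal libraries it ran JUN, JUNB, EGR1, ATF3, FOSL2, FOSL1, MAFF, FOS and FOSB, from 266.5 down to 3.45 FPKM. JUN and JUNB could not be ordered there, since each was higher in 2 preparations, and neither could FOSL2 and FOSL1. ATF3 was separate from FOSL2 below it, and the ranges of JUNB and EGR1, of EGR1 and ATF3, of FOSL1 and MAFF, and of MAFF and FOS overlapped. Within preparations JUNB was above EGR1, FOSL1 above MAFF and MAFF above FOS in all 4, and EGR1 above ATF3 in 3. With metformin the order was JUN, ATF3, JUNB, MAFF, FOSL1, EGR1, FOSL2, FOS and FOSB, from 366.9 down to 7.91 FPKM. JUN lay above ATF3, the next gene, in every metformin library, as it did in the basal ones. The ranges of ATF3 and JUNB, of JUNB and MAFF, of MAFF and FOSL1, of FOSL1 and EGR1, and of EGR1 and FOSL2 overlapped. Within preparations MAFF was above FOSL1 in all 4, ATF3 above JUNB and FOSL1 above EGR1 in 3, and JUNB above MAFF and EGR1 above FOSL2 in 2 each, so these last pairs could not be ordered. FOSL2 was separate from FOS below it in the metformin libraries, and FOS from FOSB in the basal ones, whereas the ranges of FOS and FOSB overlapped with metformin, with FOS above FOSB in all 4 preparations.

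For each of the 9 genes the nearest other gene was found by the root mean square difference of the 4 log2 changes, over 11052 genes with a symbol. With that many candidates and only 4 values, a close match can arise without shared regulation, which was not tested. MAFF was nearest to SLC2A1, a glucose transporter gene, at a distance of 0.16, with changes of 2.35, 2.74, 1.21 and 1.75 in preparations 1 to 4 against 2.26, 2.83, 1.13 and 2.02 for MAFF. FOSL1 was nearest to GRPEL2, a mitochondrial chaperone cofactor gene (0.035), ATF3 to CCDC174 (0.12), JUN to CNIH3 (0.035), FOSL2 to the chromatin remodelling gene PBRM1 (0.039) and JUNB to the replication factor gene RFC3 (0.042). CNIH3 was at a mean of only 0.640 FPKM in basal libraries. FOS was nearest to IL1A, an interleukin 1 gene (0.24), FOSB to the lipoprotein receptor gene OLR1 (0.21) and EGR1 to the adaptor gene LAT2 (0.16). RFC3, at means of 2.87 FPKM without and 1.90 with metformin, and OLR1, at 1.51 and 3.71, were low too. The changes are of log2(FPKM + 1), which shrinks those of low genes, so matches with low genes need not be matches in ratio. Within the 9 genes the smallest distances were those of FOSL2 and JUN (0.35) and of FOSL1 and ATF3 (0.38). The largest was that of EGR1 and MAFF (2.6). This distance measures closeness in size, so small changes can score as near with different courses over the preparations. FOSL2 changed by 0.60, 0.54, 0.05 and 0.16 in preparations 1 to 4, and JUN by 0.34, 0.43, 0.48 and 0.61.

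Other early response genes mostly went up. Of 31 listed, 28 had a row and 26 were tested: 17 rose and 3 fell, a changed share of 76.9% beside 43.9% of all genes, and the median log2 change was 0.57. CSRNP1, a nuclear protein gene induced by axin, rose from 40.9 ± 5.63 to 140.4 ± 45.7 FPKM (log2 change 1.70 ± 0.20). ZFP36L1, whose product promotes decay of AU-rich messages, rose from 364.1 ± 78.4 to 938.7 ± 57.7 (1.39 ± 0.14). PTGS2, the inducible cyclooxygenase gene, differed widely between preparations, with 8.76, 10.1, 70.9 and 75.5 FPKM in basal and 24.2, 44.0, 161.4 and 196.0 in metformin libraries. Each preparation of PTGS2 was higher with metformin (log2 change 1.48 ± 0.15, adjusted p = 0.00116 with limma), and without the block its adjusted p was 0.279.

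Several well-known early genes of this list lie outside the rule for named genes and were chosen after their values were seen. IER3 rose from 278.6 ± 142.4 to 736.9 ± 261.0 FPKM, MYC from 117.3 ± 46.8 to 247.7 ± 49.5 and ZFP36 from 97.4 ± 23.9 to 253.3 ± 55.0. EGR2, a relative of EGR1, rose from 6.11 ± 3.07 to 12.5 ± 3.06 FPKM (log2 change 1.01); the difference between EGR2 and EGR1 was not tested. The 3 that fell were IER5L (-0.57), GADD45B (-0.80) and CTGF (-0.62). The nuclear receptor genes NR4A1 and NR4A2 were at 5.23 or less on average in both groups and did not pass, with log2 changes of 0.34 and 0.16. SRF, which binds the serum response elements of FOS and EGR1, rose from 61.3 ± 17.2 to 92.8 ± 17.7 FPKM.

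Of 12 relatives of AP-1 listed, 10 were tested, of which 2 rose and 4 fell, a changed share of 60.0% beside 43.9% of all genes, with a median log2 change of -0.22. MAFG, the other small Maf gene tested, rose from 23.3 ± 5.03 to 59.4 ± 11.3 FPKM, with a log2 change of 1.32 ± 0.13 (adjusted p = 0.00111 with limma). Its libraries were at 19.0, 19.4, 25.3 and 29.5 in basal and 55.4, 58.5, 48.5 and 75.0 in metformin cells. Preparation 3 had the lowest metformin level, as for MAFF and ATF3 and also for ATF2 and CSRNP1. ATF2, a partner of c-Jun that stress kinases phosphorylate, rose from 27.4 ± 2.72 to 47.6 ± 9.08 FPKM (0.76 ± 0.15). BATF2, which encodes an AP-1 inhibitor, fell from 4.80 ± 3.77 to 1.95 ± 2.05 FPKM (adjusted p = 0.00156 with limma), and without the block its adjusted p was 0.215. The other three that fell, named after their values were seen, were the large Maf genes MAF (-0.59) and NRL (-0.55), and BATF (-0.72). NRL was barely detected, at a mean of 1.37 FPKM without and 0.593 with metformin.

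Upstream of AP-1, 33 of 35 listed kinases and factors were tested, of which 11 rose and 1 fell. Their changed share of 36.4% was below the 43.9% of all genes, but by direction 19.8% of all genes rose and 24.1% fell. The median log2 change of the list was 0.24. MAPK8, which encodes the Jun kinase JNK1, rose from 16.9 ± 2.42 to 31.3 ± 4.41 FPKM (log2 change 0.85 ± 0.13), and MAPK9, which encodes JNK2, was chosen after its values were seen and had a log2 change of 0.03 (adjusted p = 0.864). RPS6KA2, a ribosomal S6 kinase gene, rose from 9.92 ± 2.57 to 17.5 ± 4.38 (0.75 ± 0.13), with an adjusted p of 0.0506 without the block. MAP2K6, which encodes an activator of p38 kinases, fell from 2.76 ± 1.30 to 0.405 ± 0.250 FPKM (-1.37 ± 0.22, and -2.51 with a pseudocount of 0.1 in place of 1). MAP2K6 passed the filter on low values only through its basal libraries, since every metformin library was under 1 FPKM. Such a filter favours genes that fall. The values of this list are message levels, and kinase activity was not measured.

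Of 13 listed regulators of Jun, Fos or EGR1 proteins 12 were tested, of which 5 rose and 1 fell, a changed share of 50.0% beside 43.9% of all genes. NAB1, a corepressor of EGR proteins, rose from 21.0 ± 2.91 to 34.9 ± 3.66 FPKM (log2 change 0.71 ± 0.11). DET1 and RFWD2, whose products act together in ubiquitin ligation of c-Jun, rose from 21.0 ± 5.34 to 31.4 ± 4.10 (0.59 ± 0.12) and from 32.4 ± 4.60 to 47.8 ± 5.38 (0.55 ± 0.12). The adjusted p of DET1 was 0.0849 without the block. COPS5, named after its value was seen, was the one that fell (-0.38); its product is a signalosome subunit known as a Jun coactivator.

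Textbook AP-1 target genes went both ways. Of 28 listed, 24 had a row and 21 were tested: 8 rose and 5 fell, a changed share of 61.9% beside 43.9% of all genes, with a median log2 change of 0.18. LIF, a cytokine gene, rose from 7.70 ± 3.80 to 39.1 ± 22.3 FPKM (2.13 ± 0.20), and HBEGF, a ligand of the epidermal growth factor receptor, from 6.42 ± 2.62 to 14.2 ± 4.28 (1.05 ± 0.13). CCND1, which encodes cyclin D1, was at 64.6, 42.8, 44.7 and 21.0 FPKM in basal and 28.1, 22.2, 15.9 and 6.70 in metformin libraries. CCND1 was lower in each preparation (-1.26 ± 0.13), and its adjusted p was 0.0837 without the block. Named after their values were seen, the urokinase gene PLAU, its receptor gene PLAUR and MMP3 rose by 0.96, 0.99 and 1.19 on the log2 scale. The protease inhibitor gene TIMP1 (-0.69), the growth factor gene TGFB1 (-0.42), and LOX (-0.52) and DCN (-0.44) fell. LOX and DCN are matrix genes, and DCN is also in the stellate and fibroblast list. Of that list 7 of 8 markers fell, beside 24.1% of all genes tested. The collagenase gene MMP1 had a log2 change of 0.15 and HMOX1 one of -0.21, and neither passed. HMOX1 was lower with metformin in preparations 1 to 3 and rose from 256.0 to 640.6 FPKM in preparation 4. Binding of AP-1 was not measured.

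**Figure D4:**
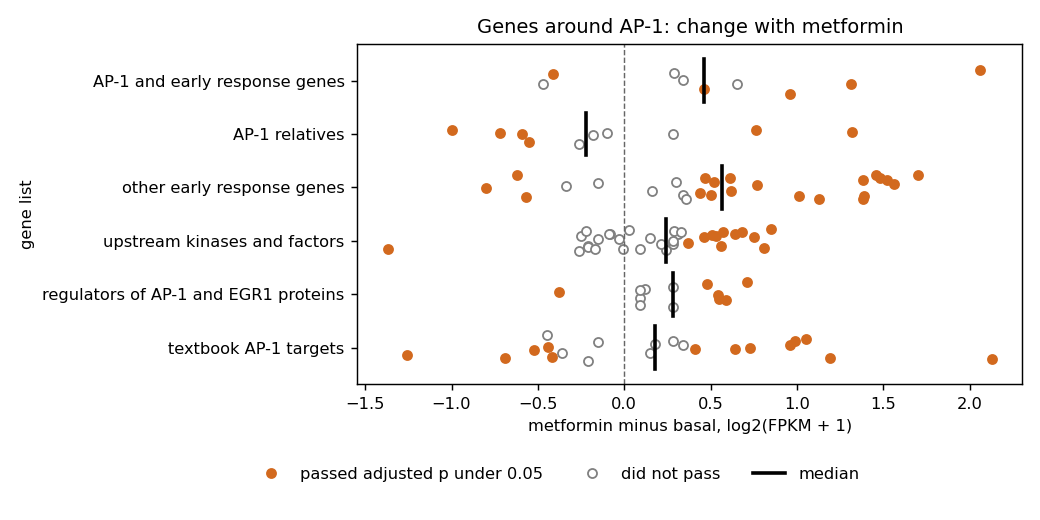
Change with metformin on the log2(FPKM + 1) scale for the 9 genes and for the tested genes of 5 related lists; each circle is a gene, filled where it passed an adjusted p under 0.05, and black bars are medians. The other early response genes lie mostly to the right of 0 (median 0.57), and the relatives of AP-1 are spread to both sides (median -0.22).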

How the data were processed

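FPKM values for each gene and library were deposited by the authors, who per the submitters' processing notes used Cufflinks and the sheep assembly Oar_v3.1; no aligner, annotation release or version is given in the labels. Per the labels' protocols the RNA was polyadenylated. The authors' deposited table also gives a p-value per gene, a signed fold change (a score) and, for some genes, a q-value. Placeholders in 4 cells, none in the genes described, were treated as missing. A gene was tested where 4 or more of the 8 libraries reached an FPKM of 1. The fit used limma 3.58.1 (R 4.3.3) on log2(FPKM + 1), which understates changes of low genes, with a term for preparation and a mean-variance trend, and p-values were adjusted by Benjamini-Hochberg over 13141 genes. The fit was tested on simulated data.

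The preparation numbers come from the titles. Deviations from the group means correlated at r = 0.489 to 0.585 between the libraries of a preparation and at most 0.0179 between preparations. The deviations of a group cancel out, so a high correlation within preparations by itself lowers those between them. The gap between these values is thus partly set by taking out the group means. The closest pair of libraries correlated at 0.953, and none was a copy of another.

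Genes and lists were chosen with earlier results of these data known. Named were all members, up to 3 genes per related list with the lowest p past the threshold, and each member's nearest gene. Alternatives were another pseudocount, other filters and scalings, no trend, no block, and leaving out each preparation, where 3 of the 6 remaining libraries had to reach an FPKM of 1.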

Additional observations from a re-analysis of the deposited data

Results flagged for a closer look

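Of 51 sets of 4 values examined among the 9 genes, their sums, shares and ratios, 2 held a value far from the other three by Dixon's test, where chance alone gives about 1 in 20. The summed level of JUN and JUNB in the basal library of preparation 2 was 425.6 FPKM, below the other basal libraries, which were at 515.1 to 528.0. The share of FOSL1 among the 4 Fos genes was 44.3% in the metformin library of preparation 1, below the 51.5% to 51.8% of the other metformin libraries. The metformin levels of FOS and FOSB in preparation 4, 43.4 and 18.7 FPKM, did not reach Dixon's limit.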

How the results depend on the processing

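The rises of MAFF, ATF3 and JUN passed under all 11 alternatives, with adjusted p of at most 0.0146, 0.0152 and 0.0473 and log2 changes of 1.81 to 2.37, 1.21 to 1.53 and 0.41 to 0.51. The number of the 9 genes that rose was 4, or 3 without the replicate block and 5 after rescaling by the median of ratios. JUNB made up the count that fell, which was 0 without the block (0 also at an unadjusted p under 0.05 with limma) and 0 without a filter on low values (1 unadjusted). Leaving out each preparation it ranged from 0 to 1, and without preparation 4 the gene was EGR1. On leaving out each preparation the log2 change of FOS ran from -0.04, without preparation 4, to 0.45. Over all genes 2605 rose and 3164 fell in the main fit, against 1272 and 1246 without the block. After rescaling by the median of ratios 3123 rose and 3077 fell, and without a filter on low values 2101 rose and 2632 fell. On leaving out each preparation 1680 to 2320 rose and 1995 to 2934 fell. The counts over all genes thus changed with the setting, as those of the 9 genes did. Of the 15 genes named from the related lists 10 kept their call under each alternative that tested them, and the other five lost it without the block. The depth in reads is unknown, so the precision of low genes such as FOSB is unknown, and the causes of these differences were not tested.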
